A study of Mus musculus with 6 samples.

Results

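Hspa5, Hsp90b1, Pdia4, Xbp1, Atf4, Ddit3, Trib3, Asns, Chac1 and Sesn2 are 10 genes of the unfolded protein response and the integrated stress response. They were taken by gene symbol from an RNA-seq table of mouse kidney that lists 54721 transcripts of 23276 gene symbols. All 10 genes were found, with 17 transcripts between them. The kidneys came from Pkd1 F/RC mice, in which 1 copy of the polycystic kidney disease gene Pkd1 carries the weakened RC allele and the other is floxed. Both groups carried the same Pkd1 alleles and Ksp/Cre, a Cre transgene that is active in renal tubule epithelium. The 3 single-knockout mice (KspCre; Pkd1 F/RC, here SKO) kept the miR-17~92 microRNA cluster. The 3 double-knockout mice (DKO) were of the genotype miR17~92 F/F besides, so that Cre can also delete that cluster in the tubules. All 6 whole kidneys were frozen at postnatal day 22 and gave total RNA. The value analysed for each transcript was the authors' mean log2 CPM, the read count scaled to library size, over the 6 kidneys of both groups. It is a single number without an error, so the results describe how abundant these genes were in Pkd1 F/RC kidneys as a set, and SKO and DKO kidneys were not compared. Values of single kidneys and their depth were not analysed here, so neither a confidence interval nor a check of Pkd1 or of the cluster in each kidney could be given.

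The unfolded protein response is the reaction of a cell to misfolded protein in the endoplasmic reticulum (ER). The chaperone Hspa5 (BiP) is released from the sensors Ern1 (IRE1), Eif2ak3 (PERK) and Atf6 when unfolded protein accumulates. IRE1 then splices Xbp1 mRNA, cleaved ATF6 enters the nucleus, and PERK phosphorylates the initiation factor eIF2. The integrated stress response is the shared downstream arm. Phosphorylated eIF2, produced by PERK or by kinases that sense lack of amino acids, haem deficiency or viral RNA, slows general translation while it favours translation of Atf4 mRNA. ATF4 and its target CHOP (Ddit3) switch on genes of amino acid supply and stress signalling. Translation of Atf4, splicing of Xbp1 and cleavage of ATF6 take place beyond transcript abundance, so that the level of these mRNAs does not measure how active the pathway was.

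Markers of kidney cells were present. All 11 markers of tubule segments, collecting duct and podocytes lay between 13.0 and 1030 mean CPM, and 6 markers of endothelium, leukocytes and fibroblasts lay between 5.19 and 128 CPM. Among markers of other organs, the insulin gene Ins2 stood at 0.0278 CPM, next to the lowest mean of the table (0.0263 CPM), whereas the cardiac myosin gene Myh6 had 0.171 CPM and the liver gene Alb 13.4 CPM. Ksp/Cre is driven by the promoter of Cdh16, whose own transcript stood at 167 CPM per kb of transcript.

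The 10 genes ranged from some of the most abundant transcripts of these kidneys to some below the median of all genes. A mean of at least 1 CPM was reached by 8 of the 10 genes, beside 55.9% of all 23276 genes. Before division by transcript length, the median of the 10 genes was 4.44 on the log2 CPM scale and the median of all genes was 1.24. The counts of the 10 genes added up to 745 CPM, of which the chaperones Hspa5 and Hsp90b1 and the foldase Pdia4 made up 86.0%. Long transcripts give more reads per molecule, so the levels of single genes were compared as CPM per kb, the mean CPM divided by transcript length. In CPM per kb, the 10 genes ran from 126 for Hsp90b1 to 0.216 for Chac1, a 584-fold range, with a median of 12.1 beside 1.40 over the 20167 genes that had a length. Hsp90b1 and Hspa5 were higher than 99.1% and 98.7% of these genes, whereas Trib3 and Chac1 were higher than 35.9% and 34.6%. Of the 10 genes, 7 lay above that median of all genes. Genes of at least 1 CPM had a higher median, 4.01 CPM per kb, and 80.2% of them lay above the median of all genes. Because the RNA came from whole kidney, a low level in every cell and expression in few cells cannot be told apart.

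**Figure D1:**
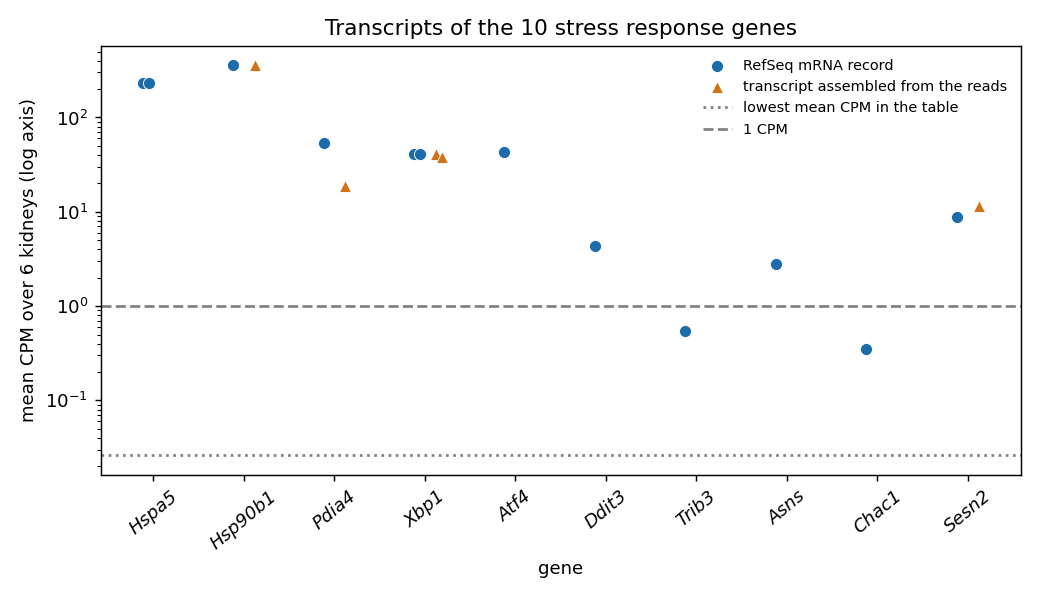
Mean CPM over 6 kidneys (vertical log axis) of each of the 17 transcripts of the 10 genes (horizontal axis, ordered by role), with circles for RefSeq mRNA records, triangles for transcripts assembled from the reads, a dashed line at 1 CPM and a dotted line at the lowest mean in the table. The transcripts of Hspa5 lie at the same height, as do those of Hsp90b1, while those of Pdia4 and Sesn2 are apart (53.8 and 18.7, 11.4 and 8.70 CPM), and Trib3 and Chac1 lie below 1 CPM.

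The ER chaperones and the foldase were the most abundant group, at 22.4 to 126 CPM per kb. Hsp90b1 (GRP94, the HSP90 protein of the ER) is located at chr10:86690209-86705509 on the minus strand and had 356 CPM, or 8.48 on the log2 scale, on its RefSeq mRNA and on an assembled transcript alike. Divided by its length of 2825 nucleotides, in 18 exons, this made 126 CPM per kb, which was exceeded among the 67 pathway genes measured only by the calcium-binding lectin chaperone Calr at 154. Hspa5, the HSP70 protein of the ER, is located at chr2:34771970-34777547 on the plus strand. Its 2 RefSeq mRNAs had 231 and 230 CPM, both 7.85 on the log2 scale. With 2613 nucleotides in 8 exons Hspa5 reached 88.2 CPM per kb, so Hsp90b1 stood 1.43-fold above it per length. This distance depended on the length taken for Hspa5. With the longest protein-coding transcript of each gene, Hspa5 fell from 6.46 to 5.97 on the log2 scale of CPM per kb. Hsp90b1 stayed at 6.98. Pdia4 (ERp72), a protein disulfide isomerase that forms and rearranges disulfide bonds, lies at chr6:47796141-47813430 on the minus strand. Its RefSeq mRNA had 53.8 CPM (log2 value 5.75) and an assembled transcript 18.7 CPM (log2 value 4.22), which is 34.7% of the former. Per length, Pdia4 had 22.4 CPM per kb, and Hspa5 stood 3.93-fold above it. The related isomerases Pdia3 and P4hb had 95.6 and 68.3 CPM per kb.

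The promoters of both leading chaperones hold the ER stress response element (ERSE), the sequence bound by ATF6 together with the CCAAT-binding factor NF-Y. It was sought as CCAAT, 9 bases of any kind and CCACG, on both strands, in the RefSeq promoters of build GRCm38.p6, which run from 250 bases before to 50 bases after each transcription start. All 10 genes had a promoter. The element occurred without mismatch in 39 of 32851 promoters (0.119%), and in 2 of the 10 genes, Hspa5 and Hsp90b1. The 32851 promoters belong to 27025 gene symbols, so the motif shares are per promoter, whereas the 10 genes are counted by gene. The Hspa5 element lies 65 to 47 bases before the start, within chr2:34772020-34772048 on the plus strand. This position falls in an exon of 1 of the 6 GENCODE transcripts of the gene and 52 bases before the start of the transcript matched to RefSeq. The Hsp90b1 promoter holds the element once in each orientation, 212 to 194 and 107 to 89 bases before the start, within chr10:86705508-86705681 on the minus strand. Both copies lie closer to the start of the matched GENCODE transcript, 129 and 24 bases before it. The stretches that hold the elements are shown 5′ to 3′ on the strand of the gene, with the elements in capitals, so that the reverse copy in Hsp90b1 begins with CGTGG and ends with ATTGG.
Hspa5: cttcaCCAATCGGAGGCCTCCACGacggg
Hsp90b1: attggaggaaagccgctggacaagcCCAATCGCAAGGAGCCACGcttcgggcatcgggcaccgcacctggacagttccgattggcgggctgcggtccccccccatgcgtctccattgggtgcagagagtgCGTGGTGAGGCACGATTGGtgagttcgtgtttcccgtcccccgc
With 1 mismatch allowed, the element was found in 494 promoters (1.50%) and in 4 of the 10 genes. Pdia4 then held a reverse copy 108 to 90 bases before its RefSeq start and Ddit3 a reverse copy 91 to 73 bases before its RefSeq start. These lie 172 and 54 bases before the starts of the matched GENCODE transcripts. The core of the XBP1-bound unfolded protein response element, TGACGTGG, was present in 0.676% of all promoters and in 0 of the 10 genes. Such matches describe the letters of these windows and do not show that a factor was bound.

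The 3 transcription factors ranged from 4.87 to 25.1 CPM per kb. Atf4, the effector of the integrated stress response, lies at chr15:80255184-80257541 on the plus strand. It had a single transcript with 43.2 CPM (log2 value 5.43), and its 1725 nucleotides in 3 exons gave 25.1 CPM per kb. Xbp1, the factor of the IRE1 arm, lies at chr11:5520659-5525893 on the plus strand and had 4 transcripts. Its 2 RefSeq mRNAs had the same mean of 41.2 CPM (log2 value 5.36). Assembled transcripts of Xbp1 had 41.2 and 38.2 CPM, the lower at 92.7% of the RefSeq mRNAs. Since the 2 RefSeq mRNAs carried equal values, the spliced and unspliced forms that IRE1 converts cannot be told apart from these levels. Per length Xbp1 had 19.4 CPM per kb, and Atf4 stood 1.30-fold above it. Ddit3 (CHOP), which ATF4 induces and which promotes cell death under lasting ER stress, lies at chr10:127290774-127296288 on the plus strand. It had 4.33 CPM (log2 value 2.12) on a single transcript of 890 nucleotides, or 4.87 CPM per kb. Atf4 and Xbp1 thus stood 5.15-fold and 3.97-fold above Ddit3 per length.

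The 4 effector genes were the least abundant, at 0.216 to 2.50 CPM per kb, with 2 of the 4 at 1 CPM or more. Sesn2, a leucine sensor that inhibits mTORC1, lies at chr4:132492032-132510501 on the minus strand. Its assembled transcript had 11.4 CPM (log2 value 3.51) and its RefSeq mRNA 8.70 CPM (log2 value 3.12), which is 76.4% of the former. The RefSeq mRNA of 3475 nucleotides gave 2.50 CPM per kb. Asns, the enzyme that makes asparagine from aspartate and glutamine, lies at chr6:7675169-7693254 on the minus strand and had 2.80 CPM (log2 value 1.49), or 1.40 CPM per kb. This level was higher than that of 49.9% of the genes with a length, close to the middle of all genes. Trib3, a pseudokinase that binds AKT and restrains ATF4 and CHOP, lies at chr2:152337422-152344032 on the minus strand. Its only transcript had 0.550 CPM (log2 value -0.86), or 0.272 CPM per kb. Chac1, an enzyme that degrades glutathione, lies at chr2:119351229-119354381 on the plus strand and had 0.354 CPM (log2 value -1.50), or 0.216 CPM per kb. Trib3 and Chac1 were thus below 1 CPM, yet above the lowest mean in the table. That mean was shared by 4617 transcripts, so it was taken as a floor and not as a measured level. Atf4 stood 17.9-fold above Asns and 92.3-fold above Trib3 per length.

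**Figure D2:**
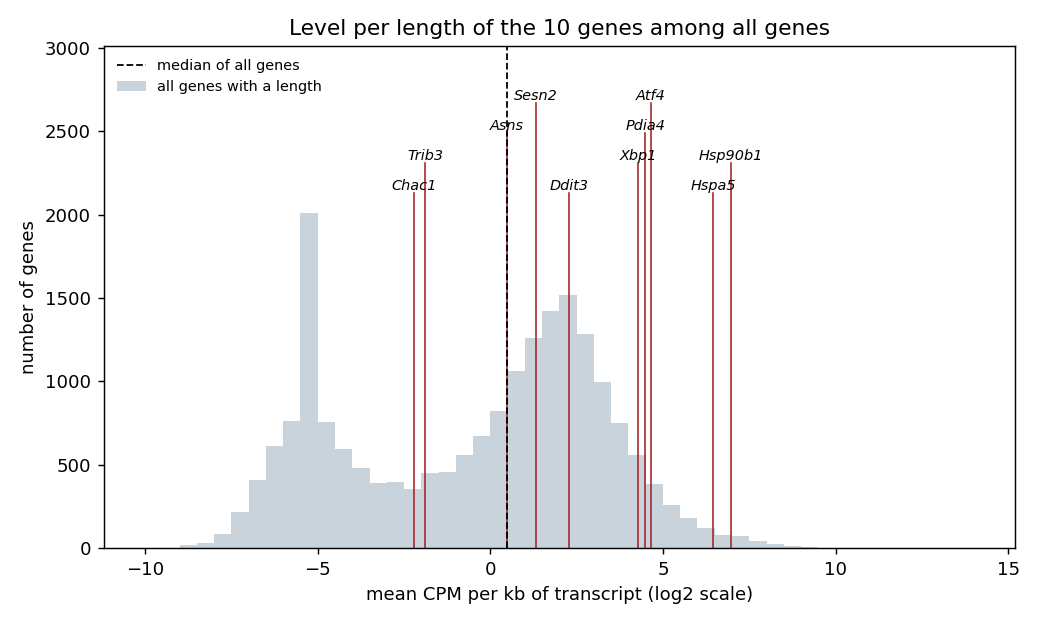
Number of genes (vertical axis) by mean CPM per kb of transcript on the log2 scale (horizontal axis), with the 20167 genes with a length as grey bars, their median as a dashed line and the 10 genes as red lines, whose height carries no value. On the linear scale, Hsp90b1 and Hspa5 sit in the upper tail at 126 and 88.2, Asns at the median of all genes at 1.40, and Trib3 and Chac1 below it at 0.272 and 0.216.

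In descending order of CPM per kb, the genes were Hsp90b1, Hspa5, Atf4, Pdia4, Xbp1, Ddit3, Sesn2, Asns, Trib3 and Chac1. The order was the same with each of the 3 ways of choosing the transcript length. Of these, the longest RefSeq transcript gave the same values as the main choice for every gene, so it was no separate check. The steps between some neighbours were small, 1.30-fold from Atf4 over Pdia4 to Xbp1 and 1.26-fold from Trib3 to Chac1. As the means carry no error, it cannot be said which neighbours differed beyond the spread between kidneys.

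The promoters of the 3 genes that were lowest per length, Asns, Trib3 and Chac1, hold the core of the C/EBP-ATF response element (CARE), the sequence bound by ATF4 with a C/EBP partner. The core TGATGNAA, with N for any base, occurred on either strand in 1304 promoters (3.97%) and in 3 of the 10 genes, those named. In Asns it lies on the strand of the gene 23 to 16 bases before the RefSeq start, within chr6:7693214-7693243 on the minus strand, which GENCODE counts to the first exon. In Chac1 it lies in reverse 193 to 186 bases before the start, within chr2:119351024-119351081 on the plus strand. In Trib3 it lies in reverse 14 to 21 bases after the RefSeq start, within chr2:152344029-152344056 on the minus strand, which is 7 bases before the start of the matched GENCODE transcript. The sequences are shown 5′ to 3′ on the strand of the gene with the core in capitals, and the reverse copies read TTNCATCA.
Asns: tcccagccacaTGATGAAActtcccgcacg
Chac1: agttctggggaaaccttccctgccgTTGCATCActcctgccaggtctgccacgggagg
Trib3: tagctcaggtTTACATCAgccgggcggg
The fourth effector, Sesn2, and the 3 transcription factors held neither this core nor an exact ERSE within the 300 bases searched.

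**Figure D3:**
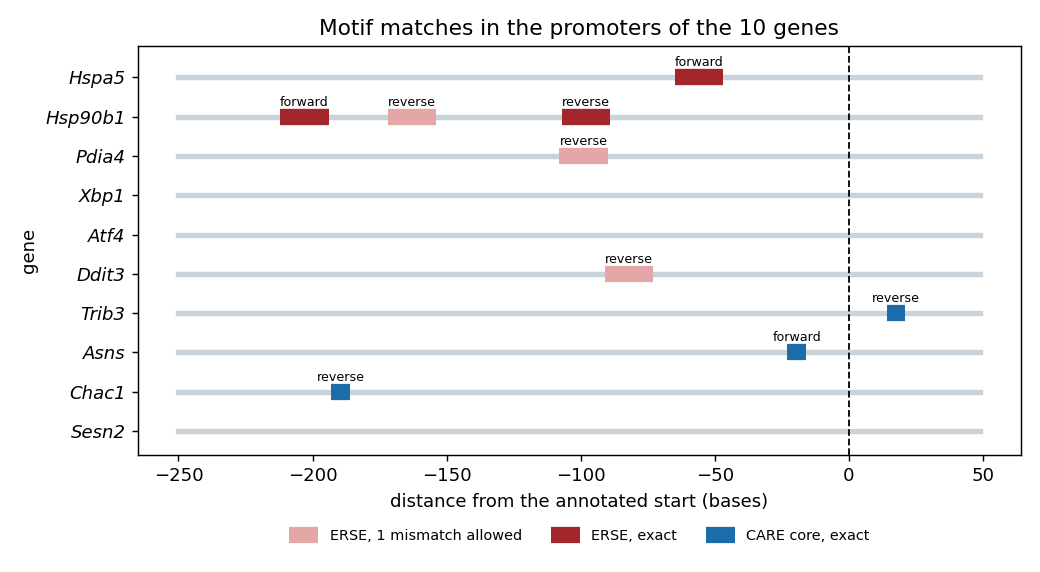
Position of each motif match in the promoters of the 10 genes, in bases from the RefSeq transcription start (horizontal axis, 250 before to 50 after), with 1 line per gene and blocks for exact ERSE matches (dark red), ERSE matches with 1 mismatch (pale red) and CARE cores (blue), each marked as forward or reverse to the gene. Exact ERSE matches lie before the start of Hspa5 and Hsp90b1, and CARE cores lie in Asns, Chac1 and Trib3.

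The rest of the pathway was read from 4 lists with 57 other genes, all of which were in the table and 53 of which had at least 1 CPM. The ER folding and transport list was the most abundant, with all 15 genes at 1 CPM or more and a median of 15.5 CPM per kb, from the oxidase Ero1lb at 1.21 to Calr at 154. Its lectin chaperone Canx had 58.6 and the isomerase Pdia6 39.9 CPM per kb. ER-associated degradation, which returns misfolded protein to the proteasome, had a median of 8.12 CPM per kb over 9 genes. Herpud1, a scaffold of the degradation complex, had 44.0 CPM per kb there and Derl3 0.251. The sensors, eIF2 kinases and phosphatase subunits had a median of 5.27 CPM per kb over 13 genes, and 12 of them reached 1 CPM. Among the 3 ER sensors, Atf6 had 5.27, PERK 4.46 and IRE1 1.16 CPM per kb. The other eIF2 kinases were Eif2ak1 (HRI) at 6.85, Eif2ak2 (PKR) at 6.10 and Eif2ak4 (GCN2) at 2.13 CPM per kb. The phosphatase subunits that reverse eIF2 phosphorylation had 9.28 (Ppp1r15b, the constitutive form) and 3.17 CPM per kb (Ppp1r15a, GADD34, the inducible form). The intestinal IRE1 paralogue Ern2 was the lowest, at 0.0615 CPM per kb.

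Other targets and partners of ATF4 and CHOP had the lowest median of the lists, 2.50 CPM per kb over 20 genes. Of these, 18 reached 1 CPM and 13 lay above the median of all genes. Over all genes of at least 1 CPM, 80.2% lay above the median of all genes. The amino acid transporter subunit Slc3a2 had 27.5, the stress protein Nupr1 25.6 and the serine pathway enzymes Shmt2 and Psat1 22.9 and 5.45 CPM per kb. The cystine transporter gene Slc7a11 and the hormone gene Fgf21, by contrast, had 0.0430 and 0.0339 CPM per kb, and the stress-induced factor Atf3 had 0.806. Before division by length, Slc7a11 had 0.397 CPM on 9223 nucleotides. Fgf21 had only 0.0322 CPM on 951 nucleotides, next to the lowest mean of the table (0.0263 CPM). Ordered together with these 57 genes, Hsp90b1 ranked 2, Hspa5 4, Atf4 13, Pdia4 16 and Xbp1 18 of 67. Ddit3 ranked 40, between Atf6 and PERK, and Sesn2 ranked 48. Asns ranked 54, just below the mitochondrial folate enzyme Mthfd2 at 1.60 CPM per kb, and Trib3 and Chac1 ranked 62 and 64, on either side of Derl3.

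**Figure D4:**
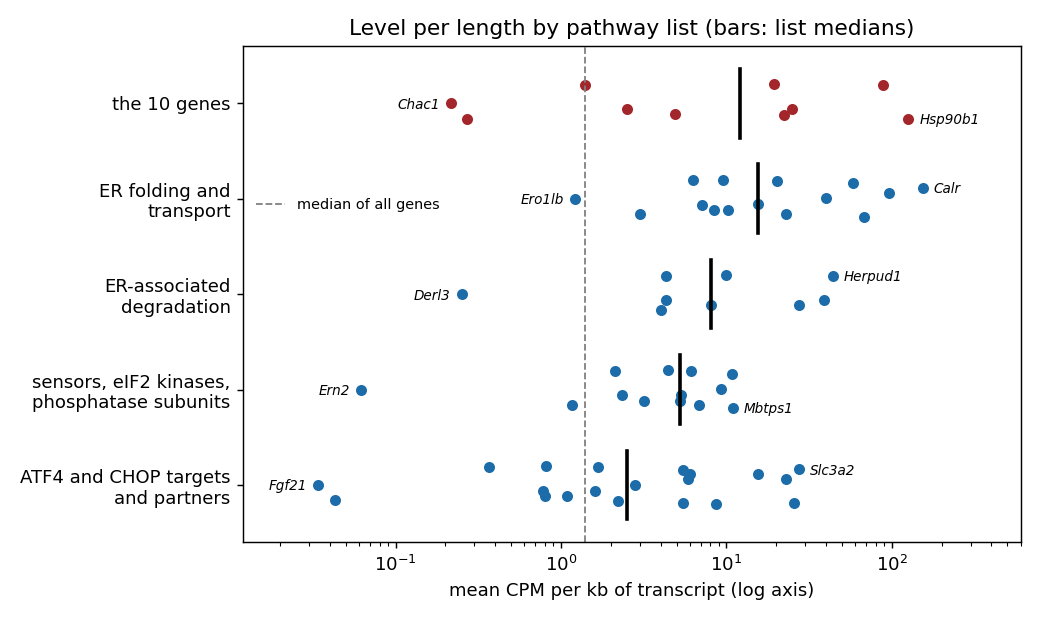
Mean CPM per kb of transcript (log axis) of each gene in the 4 pathway lists and of the 10 genes, with points for genes, a bar for the median of each list and a dashed line for the median of all genes at 1.40. Medians run from 15.5 for ER folding and transport to 2.50 for ATF4 and CHOP targets and partners, and the 10 genes extend from 0.216 to 126.

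The same motifs were counted in the promoters of the lists as far as the symbols had a RefSeq promoter. An exact ERSE was found in 5 of 11 ER folding genes (Calr, Canx, Creld2, Dnajc3 and Pdia6), in 2 of 8 ER-associated degradation genes (Derl3 and Syvn1), and in 0 of 10 sensors, kinases and phosphatase subunits and 0 of 18 ATF4 and CHOP targets. The CARE core was found in 5 of 18 ATF4 and CHOP targets (Atf3, Fgf21, Nupr1, Slc7a11 and Vldlr), in Herpud1 among the degradation genes, and in 0 of 11 ER folding genes. The TGACGTGG core occurred once in the lists, in the degradation gene Vcp. ERSE and the CARE core were each found in abundant genes (Calr, Nupr1) as well as in scarce ones (Derl3, Fgf21).

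The microRNAs of the cluster floxed in DKO mice were matched to the 3′-UTRs of the 10 genes, since a microRNA usually acts through pairing of its seed, bases 2 to 8, with a 3′-UTR. The cluster is encoded on the plus strand of chromosome 14, with the mature sequences between 115043684 and 115044496 (GRCm38.p6). Copies of miR-19b-3p and miR-92a-3p with the same mature sequence are also encoded on the minus strand of chromosome X, at 52741991-52742013 and 52741854-52741874. The mature RefSeq sequences are given with the seed in capitals, grouped by shared or similar seed.
miR-17-5p: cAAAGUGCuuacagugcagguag
miR-20a-5p: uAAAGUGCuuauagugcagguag
miR-18a-5p: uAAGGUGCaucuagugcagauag
miR-19a-3p: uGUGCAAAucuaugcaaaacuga
miR-19b-3p: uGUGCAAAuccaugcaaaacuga
miR-92a-3p: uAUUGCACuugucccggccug
Sesn2 alone among the 10 genes held a match among the 3′-UTR sequences searched, to the seed shared by miR-17 and miR-20a (GCACTTT). The match occupies positions 1265 to 1271 of its 1684-nucleotide 3′-UTR, at chr4:132492445-132492451 on the minus strand. It is shown within chr4:132492434-132492463, with the match in capitals.
Sesn2: caccaccgacaaGCACTTTgcagagcaaac
This match was present in 2086 of the 18912 genes with a 3′-UTR. Matches to miR-18a, miR-19 and miR-92a, present in 7.22%, 10.1% and 5.98% of these genes, were found in 0 of the 10 genes. With the stricter requirement of an A after the miR-17 match, 3.29% of all genes and 0 of the 10 genes held it. The 3′-UTRs of the 10 genes ran from 81 nucleotides in Atf4 to 1684 in Sesn2, with a median of 382.5 beside 786 over all genes, and a shorter sequence has fewer positions for a match. Those of Sesn2, Xbp1 (989 nucleotides) and Chac1 (791 nucleotides) were longer than the median of all genes. A match is a description of sequence, and whether Sesn2 differed between SKO and DKO kidneys was not tested.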

How the data were processed

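RNA of 3 SKO and 3 DKO kidneys of Pkd1 F/RC mice was sequenced as stranded total RNA libraries. Per the study's methods and the submitters' processing notes, reads were aligned to mm10 with TopHat2 2.0.12, transcripts were assembled (Cufflinks), reads were counted (featureCounts, Subread 1.4.6) and groups were compared with edgeR 3.2.4. The deposited table gives 1 mean log2 CPM for each transcript over the 6 kidneys, which is the only measurement used here. Its other columns hold the authors' own comparison of the groups (fold change, likelihood ratio, p-value and false discovery rate) and were not used. The planned edgeR quasi-likelihood test needs counts of single kidneys and was not run, so no p-value is given.

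The mean CPM of all transcripts summed to 1007270. Among 3911 genes with more than 1 RefSeq mRNA, 1910 (48.8%) had all of these within 1% of each other, so reads may have been counted for each transcript that they overlap, and values of transcripts of a gene were not treated as independent. CPM and log2 CPM of a gene are those of its highest transcript. CPM per kb used the highest RefSeq mRNA of the gene, which for some genes (Sesn2, Ern1) is lower than an assembled transcript. The sum over 1 transcript a gene was 370295 CPM. CPM values here, and the limit of 1 CPM, are therefore on the scale of this table and need not equal those of a count per gene. Lengths, exons and coordinates were taken from GENCODE M21 (GRCm38, the assembly of mm10) for the transcript matched to that RefSeq mRNA, and promoters and microRNAs from RefSeq tables of GRCm38.p6. Scripts were tested on simulated data (Python 3.11.15, numpy 2.4.6, pandas 2.3.3, scipy 1.17.1, matplotlib 3.10.9).

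The 10 genes were named with all their transcripts, and other genes as members of the 4 pathway lists, as their extremes or neighbours, or as cell type markers. Genes and lists were chosen with earlier results of these data known. Protein sequences were not used here. Alternatives were the choice of transcript, the table's lowest mean subtracted, a minimum of 1 CPM, other transcript lengths, 1 mismatch in ERSE and a stricter seed match. The longest GENCODE transcript as length and the stricter seed match were added after seeing the data.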

Additional observations from a re-analysis of the deposited data

How the results depend on the processing

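No spread between kidneys was available, so 0.1 on the log2 scale was taken as the limit of no move. The median of the 10 genes, 4.44 on the log2 CPM scale, became 4.15 with the median over the transcripts of each gene, 3.67 with the lowest transcript and 4.24 with RefSeq mRNAs only. Keeping genes of at least 1 CPM moved the list medians from 4.99 to 5.33 for ER-associated degradation, from 4.33 to 4.62 for sensors, kinases and phosphatase subunits and from 2.68 to 3.36 for ATF4 and CHOP targets, whereas RefSeq mRNAs only gave 2.39 for the last. The number of the 10 genes with an ERSE rose from 2 to 4 with 1 mismatch. Of 60 values of single genes under these alternatives, 52 stayed within 0.1 and 8 moved. Many of the 52 could not move. Atf4, Ddit3, Trib3, Asns and Chac1 had a single transcript, so the choice among transcripts left their values as they were. The longest RefSeq transcript as length gave the main value for all 10 genes. The values that moved were those of Pdia4, Sesn2, Xbp1 and Chac1 in CPM and of Hspa5 in CPM per kb.

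No paired analysis was possible because the table holds means over both groups. DESeq2, no filter on low counts and leaving out each kidney in turn were not run, since they need counts of single kidneys. The depth of the libraries is unknown, and the precision of any level could not be judged.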
